A study of Mus musculus with 8 samples.

Results

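The Hippo kinase core was described here at the mRNA level in cultured liver myofibroblasts after inhibition of OGT, which attaches the monosaccharide O-GlcNAc to intracellular proteins. Its 10 members were taken by gene symbol from the 40840 genes of the deposited tables. They were the MST kinases Stk3 and Stk4 with their scaffold Sav1, the LATS kinases Lats1 and Lats2, the MOB1 adaptors Mob1a and Mob1b, and the upstream activators Nf2, Amot and Amotl1. All 10 had 10 or more counts in total and were therefore tested.

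The cells were primary myofibroblastic hepatic stellate cells (pMF-HSCs) of male C57BL/6J mice aged 15 to 18 weeks, sorted from liver by the autofluorescence of their vitamin A. Stellate cells store vitamin A in the healthy liver and turn into collagen-producing myofibroblasts in culture, which was allowed for 7 days in medium with 5% fetal bovine serum. Control cultures (n = 4) received the vehicle DMSO, and OGTi cultures (n = 4) received OSMI-1, an inhibitor of O-GlcNAc transferase (OGT), at 50 µM, both for 24 h. The labels call the cultures biological replicates, all cells carried wild-type alleles, and control and OGTi cultures of 1 replicate number were compared as a pair.

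In the Hippo pathway, MST1 and MST2 (encoded by Stk4 and Stk3) phosphorylate LATS1 and LATS2 with the help of SAV1 and MOB1. The LATS kinases in turn phosphorylate the coactivators YAP and TAZ, which are then kept in the cytoplasm or degraded and no longer act with TEAD transcription factors. NF2 (merlin) brings LATS to the plasma membrane, and angiomotins bind YAP. The pathway is known in stellate cells because YAP and TAZ take part in their activation. The cascade works by phosphorylation, so that mRNA levels give the supply of each component and not the activity of the kinases.

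Lats2 mRNA fell and Mob1b mRNA rose, and the other 8 members did not pass the test. Mob1b was 4.09-fold higher in OGTi and Lats2 was 1.85-fold lower. As 2 of 10 members were called, against 18.4% of all 19963 genes tested, the share of members called was near that of the background (edgeR quasi-likelihood test, Benjamini-Hochberg adjusted p of at most 0.05). With any 1 pair left out Lats2 was not called, and the count of members was 1 (Mob1b) without replicate 2, 3 or 4 and 2 (Mob1b and Stk4) without replicate 1. The background of genes called higher was 8.13% and that of genes called lower was 10.2%. The median log2 fold change was -0.16 over the members and 0.01 over all genes tested. In bulk RNA, fewer cells of a type and less RNA per cell cannot be told apart, and this holds for each fall given here.

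Mob1a and Mob1b encode closely related proteins, and reads of one could be counted for the other where their mRNAs are identical. The coding sequences are therefore shown where they were compared, over coding bases 15 to 134, which lie in exon 2 of both genes (GRCm39, GENCODE vM39, plus strand). Bases that differ are in capitals, 28 of 120. The Mob1a stretch lies at chr6:83306849-83306968 and the Mob1b stretch at chr5:88891163-88891282.
Mob1a: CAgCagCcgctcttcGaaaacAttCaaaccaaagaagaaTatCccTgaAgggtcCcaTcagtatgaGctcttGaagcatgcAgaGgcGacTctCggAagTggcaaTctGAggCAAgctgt
Mob1b: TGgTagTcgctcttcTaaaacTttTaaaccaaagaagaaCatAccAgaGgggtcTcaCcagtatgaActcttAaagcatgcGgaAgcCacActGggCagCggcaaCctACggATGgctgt
Over the whole aligned coding sequence the pair shared 79.6% of bases, and the longest run without a difference was 20 bases. The same comparison gave 76.7% for Stk3 and Stk4, 67.2% for Lats1 and Lats2, and 70.6% for Amot and Amotl1, with longest shared runs of 23, 22 and 20 bases. Untranslated sequence was not compared for any pair. The coding sequences hold 648 (Mob1a) and 663 (Mob1b) bases, against mean transcript lengths of 2805 and 3171 bases in control. All 80 deposited member values were exact whole numbers as deposited. Whole totals do not show how reads that fit both genes of a pair were assigned.

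A promoter of each of the 2 members that changed is also shown, from the RefSeq promoter table, whose build is GRCm38.p6. Each runs from 250 bases before to 50 bases after a start site, 5′ to 3′ on the strand of the gene, and was found once in GRCm39, whose positions are given. Capitals mark the E-box CACGTG, which reads the same on both strands, and the TEAD motif GGAATG, searched on the other strand as CATTCC. The Lats2 promoter printed lies at chr14:57983531-57983830 on the minus strand and the Mob1b promoter at chr5:88868480-88868779 on the plus strand.
Lats2: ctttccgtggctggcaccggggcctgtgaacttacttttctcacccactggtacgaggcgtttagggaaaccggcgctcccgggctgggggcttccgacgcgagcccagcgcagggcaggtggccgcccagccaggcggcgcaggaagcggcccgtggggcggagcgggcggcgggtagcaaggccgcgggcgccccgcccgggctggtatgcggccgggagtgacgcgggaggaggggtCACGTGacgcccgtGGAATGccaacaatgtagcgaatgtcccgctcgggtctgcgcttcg
Mob1b: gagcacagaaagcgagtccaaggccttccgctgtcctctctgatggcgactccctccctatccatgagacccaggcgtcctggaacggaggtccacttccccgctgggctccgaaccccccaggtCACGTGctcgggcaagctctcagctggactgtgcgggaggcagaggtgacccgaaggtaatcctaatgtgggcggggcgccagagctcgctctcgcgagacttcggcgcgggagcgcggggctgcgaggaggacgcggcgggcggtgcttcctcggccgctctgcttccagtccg
The table holds another Lats2 promoter, at chr14:57971826-57972125, in which none of the motifs searched was found. In the Lats2 promoter printed, the E-box began 10 bases before the start site and the TEAD motif 4 bases after it, without overlap, and in Mob1b the E-box began 125 bases before the start site. A promoter was matched for 9 of the 10 members (11 promoters in all), and none was matched for Stk3. The E-box was found in 4 of these 11 promoters (1 each of Amot, Lats2, Mob1b and Stk4), against 7.15% of 32851 promoters in the table. The TEAD motif was found in 3 of the 11 (1 each of Lats2, Mob1a and Sav1), against 14.7%. The AP-1 motif TGAGTCA, searched on the other strand as TGACTCA, was found in 0 of the 11, against 5.20%. These are matches of letters in a window, and no binding was measured here.

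Libraries held 30068876 to 37372420 expected counts, and the 10 members together held 15247 (OGTi replicate 1) to 26221 of them (control replicate 1). OGTi replicate 1 stood apart: compared with the other OGTi libraries, its log2 counts differed by a median of 0.59 in the fifth of genes with the shortest transcripts and of -0.48 in the fifth with the longest. It had the lowest count of all 8 libraries in 5 members (Stk3, Lats1, Lats2, Mob1a and Nf2). OGTi replicate 4 had a count in 23746 genes, against 19035 to 20293 in the other libraries. In each library the top 10 genes by count held 6.73% to 7.76% of counts in control and 10.9% to 15.8% in OGTi, which bears on TPM, a share of the library, and its part in the member values was not tested. The labelled cell type was checked on 12 stellate and myofibroblast markers. All 12 were tested, of which Pdgfrb and Lrat were called lower in OGTi and 0 higher. Hepatocyte markers summed to at most 1.68 TPM, in which RSEM corrects for transcript length and library depth, with Hnf4a at 0 counts in every library and Cyp2e1 called higher. Endothelial markers summed to at most 3.14 TPM, with Lyve1 and Tek called lower. The 8 macrophage markers summed to 49.8 to 175 TPM in control and 88.4 to 228 TPM in OGTi, ranges that overlap, with 1 of the 8, Cd68, called higher. The 6 cholangiocyte markers summed to 307 to 654 TPM in control and 128 to 563 TPM in OGTi, with Krt19 called lower, Sox9 called higher and Cftr at or near 0 counts. In counts brought to a common library size, control means were 8895 for Spp1 and 2323 for Krt19. They were far lower for Sox9 (104), Krt7 (31.0) and Epcam (4.22), so the sum does not stand for all 6 markers alike. The part of these markers in the member changes was not tested.

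By TPM, which allows levels of different genes to be compared, Lats2 had the highest control mean at 57.9 ± 8.32 TPM (SD, n = 4). Mob1a followed at 56.6 ± 15.2, then Stk3 at 46.0 ± 7.66, Stk4 at 33.2 ± 8.46, Nf2 at 24.4 ± 2.57 and Amotl1 at 23.8 ± 3.61 TPM. The libraries of each neighbour in this order overlapped. A gap then separated Amotl1 from Mob1b at 4.69 ± 1.57 TPM, whose range overlapped that of Lats1 at 4.11 ± 1.06, and that of Lats1 overlapped Amot at 3.17 ± 0.834 TPM. Sav1 was lowest at 0.735 ± 0.278 TPM and did not overlap Amot. In control, a single paralog held most of the mRNA of the LATS, MOB1 and angiomotin pairs, whereas both MST kinases were high. In OGTi, Stk4 had the highest mean at 47.5 ± 12.9 TPM, and Lats2 stood at rank 4 with 27.0 ± 8.66 TPM.

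**Figure D1:**
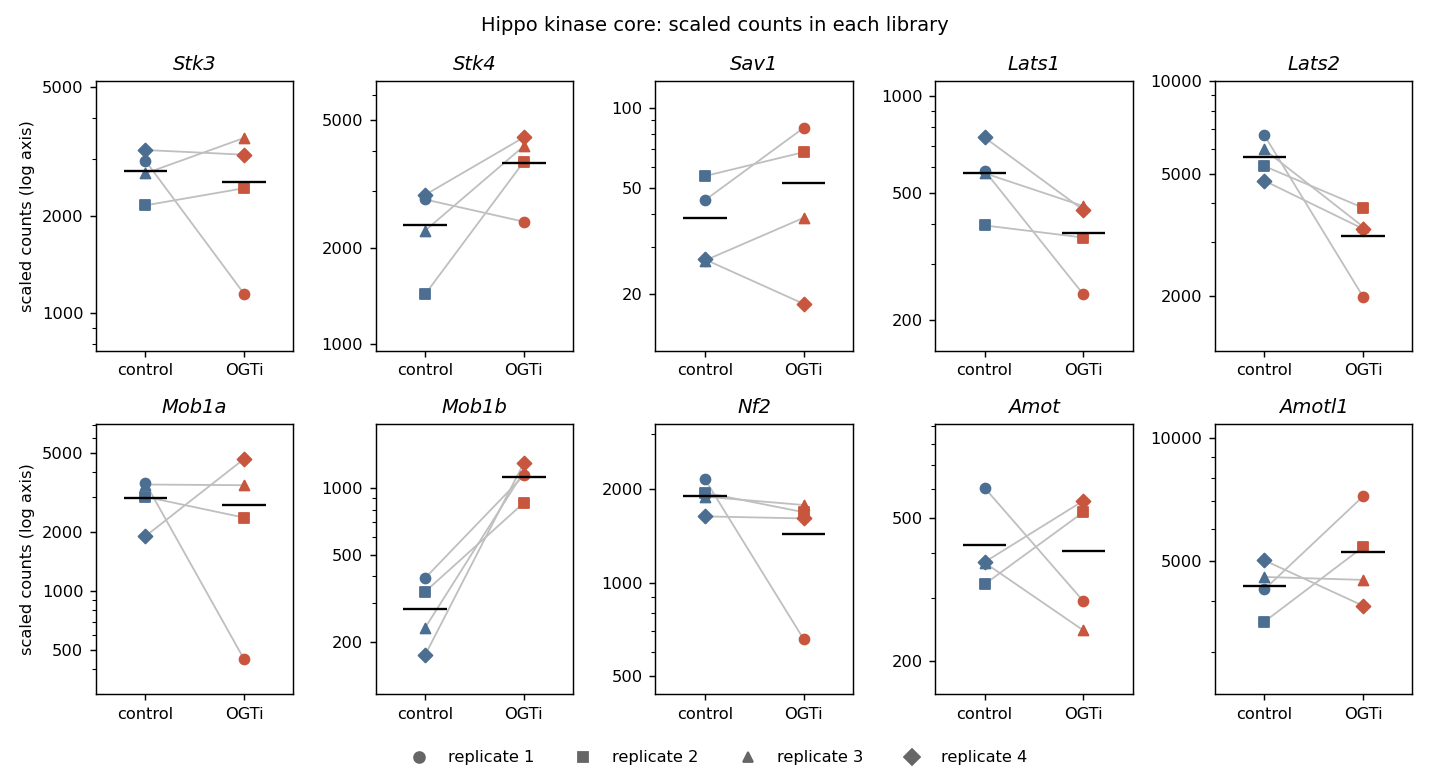
Scaled counts (log axis) of the 10 members in each library, with control and OGTi cultures of 1 replicate number joined by a line and group means as bars. The groups do not overlap in Lats2 (lower in OGTi) and Mob1b (higher in OGTi), and OGTi replicate 1 is the lowest library in 5 panels.

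The LATS kinases are the last kinases of the cascade and phosphorylate YAP and TAZ directly. Lats2 (chr14:57926960-57995845, minus strand) had scaled counts, that is counts brought to a common library size, of 6676, 5290, 5992 and 4741 in control replicates 1 to 4. In OGTi replicates 1 to 4 it had 1987, 3869, 3357 and 3305. Every OGTi library lay below every control library, and OGTi replicate 1 was the lowest. The log2 fold change was -0.88 ± 0.25 (SE), with an adjusted p of 0.0339 and a lower value in all 4 pairs. Lats2 is itself a gene that YAP and TAZ are known to activate. The size of the fall stayed between -0.60 and -1.005 on the log2 scale when any 1 pair was left out, yet none of these 4 fits kept the call, with adjusted p of 0.0520, 0.0593, 0.107 and 0.0644 without replicates 1 to 4. With each library's trend on gene length removed, the log2 fold change was -0.71, with an adjusted p of 0.0230.

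Lats1 (chr10:7556736-7592226, plus strand), the other LATS kinase, had scaled counts of 585, 395, 575 and 743 in control. OGTi cultures had 241, 362, 454 and 441. The groups overlapped, but each OGTi library was below the control library of its pair. Its log2 fold change of -0.62 ± 0.26 did not pass the test (adjusted p of 0.124), and 12 alternative settings gave values between -0.82 and -0.41, with none called. Summed over both genes, LATS mRNA was 62.1 ± 8.03 TPM in control and 29.2 ± 9.21 TPM in OGTi (SD, n = 4), with no overlap between the control range of 53.0 to 70.9 and the OGTi range of 16.9 to 39.1 TPM. Lats2 made up 93.3% ± 2.33 of that sum in control and 92.5% ± 1.33 in OGTi, with p = 0.5 in an exact two-sided sign-flip permutation test, which over 4 pairs cannot go below 0.125. TPM of single genes did not overlap between groups in 27% of all genes tested. In the main fit on counts, Lats2 was 1.85-fold and Lats1 1.54-fold lower, the latter not called.

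The MOB1 adaptors bind LATS and are needed for its activation. Mob1b (chr5:88868702-88912079, plus strand) had scaled counts of 391, 339, 232 and 174 in control, against 1145, 860, 1192 and 1305 in OGTi. Every OGTi library held more than every control library, and replicate 4, which was lowest in control, was highest in OGTi. The log2 fold change was 2.03 ± 0.30, with an adjusted p of 0.00177 and a higher value in all 4 pairs. Mob1b was called under all 12 alternative settings, with log2 fold changes between 1.51 and 2.296. Without replicate 1 or any other pair it stayed between 1.76 and 2.296, with adjusted p of 0.00420 to 0.0115.

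Mob1a (chr6:83302997-83320762, plus strand) had scaled counts of 3544, 3012, 3474 and 1896 in control, against 451, 2360, 3446 and 4686 in OGTi. The OGTi values spanned the whole control range and beyond it on both sides, with replicate 1 far below the other libraries and replicate 4 the highest of all. The log2 fold change of -0.43 ± 0.56 did not pass the test (adjusted p of 0.659) and became 0.31 without replicate 1.

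Mob1b made up 8.68%, 8.95%, 5.49% and 7.60% of MOB1 mRNA, the summed TPM of both genes, in control replicates 1 to 4. In OGTi it made up 69.7%, 23.8%, 22.8% and 19.1%. The share was higher in OGTi in all 4 pairs and did not overlap, and OGTi replicate 1, where Mob1a was lowest, lay far above the other 3. The means were 7.68% ± 1.57 and 33.8% ± 24.0 (SD, n = 4), and the exact two-sided sign-flip permutation test gave p = 0.125, the smallest that 4 pairs allow. The mean difference was 26.2 percentage points, and 14.5 without replicate 1. The summed MOB1 mRNA was 61.3 ± 16.3 TPM in control and 58.7 ± 31.1 TPM in OGTi, with overlapping ranges.

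**Figure D2:**
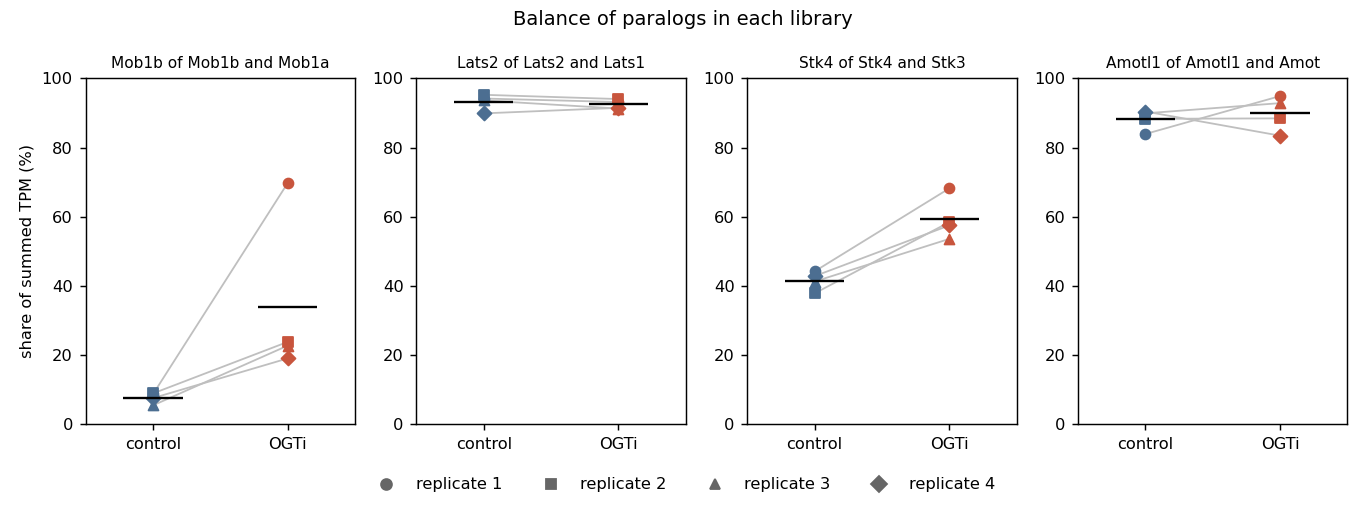
Share of each paralog pair's summed TPM (%) held by the named gene in each library, with pairs joined by lines and group means as bars. The Mob1b share and the Stk4 share were higher in OGTi in all 4 pairs, while the Lats2 and Amotl1 shares overlapped between groups.

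The MST kinases stand at the top of the core. Stk4 (MST1, chr2:163912242-163997444, plus strand) had scaled counts of 2828, 1428, 2259 and 2922 in control. In OGTi it had 2410, 3711, 4152 and 4421. It was higher in OGTi in 3 of 4 pairs, and OGTi replicate 1 was the exception. Its log2 fold change of 0.66 ± 0.27 did not pass the test (adjusted p of 0.121). Without replicate 1 it was 0.95, with an adjusted p of 0.0215, and with the trend on gene length removed it was 0.75, with an adjusted p of 0.0459. Upper-quartile scaling, under which the median of all genes was 0.13, gave 0.78 and an adjusted p of 0.0484, so that Stk4 was called under 3 of 12 alternative settings.

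Stk3 (MST2, chr15:34874700-35179067, minus strand) had scaled counts of 2965, 2154, 2703 and 3195 in control. In OGTi it had 1147, 2433, 3482 and 3090. Apart from replicate 1, the OGTi libraries lay in or above the control range. Its log2 fold change of -0.21 ± 0.29 did not pass the test (adjusted p of 0.683) and was 0.17 without replicate 1.

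Stk4 made up 44.2%, 37.9%, 41.3% and 42.8% of MST mRNA in control replicates 1 to 4, by TPM. In OGTi it made up 68.2%, 58.5%, 53.6% and 57.5%. The lower of the MST kinases in control was thus the higher one in every OGTi library, and the groups did not overlap. The means were 41.6% ± 2.73 and 59.5% ± 6.21 (SD, n = 4), with p = 0.125 in the exact two-sided sign-flip permutation test, the smallest that 4 pairs allow. From counts not divided by length, the shares were 45.5% ± 3.99 and 60.4% ± 5.55. The difference was 17.9 percentage points by TPM and 15.9 without replicate 1. Summed MST mRNA was 79.2 ± 16.04 TPM in control and 82.0 ± 27.3 TPM in OGTi.

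Sav1 (chr12:70003735-70033975, minus strand), the scaffold that brings MST and LATS together, was the least abundant member. It had scaled counts of 44.9, 55.4, 26.7 and 27.0 in control. In OGTi it had 84.0, 68.1, 38.6 and 18.4. Both groups spread over more than a 2-fold range and overlapped. Sav1 had a log2 fold change of 0.32 ± 0.38 (adjusted p of 0.622). It was 0.12 without replicate 1 (adjusted p of 0.899), and no alternative setting called it.

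Among the upstream activators, Nf2 (chr11:4715841-4799536, minus strand) had scaled counts of 2147, 1943, 1886 and 1630 in control. In OGTi it had 659, 1682, 1773 and 1606. OGTi replicates 2 to 4 lay close to the lowest control library, and replicate 1 lay far below every other library. The log2 fold change of -0.49 ± 0.30 did not pass the test (adjusted p of 0.296) and was -0.10 without replicate 1 (adjusted p of 0.737).

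Angiomotins are junctional proteins that bind NF2, LATS and YAP. Amotl1 (chr9:14453262-14556352, minus strand) had scaled counts of 4265, 3557, 4576 and 5025 in control and of 7199, 5414, 4501 and 3893 in OGTi. Unlike Nf2 and Mob1a, it was highest in OGTi replicate 1, and the groups overlapped. Its log2 fold change was 0.24 ± 0.23 (adjusted p of 0.530). It was 0.07 without replicate 1, and limma on log2(TPM + 1) put it at -0.08.

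Amot (chrX:144229421-144288177, minus strand) had scaled counts of 605, 327, 376 and 377 in control and of 294, 518, 244 and 557 in OGTi. Amot was higher in OGTi in 2 pairs and lower in 2, and the log2 fold change was -0.11 ± 0.32 (adjusted p of 0.866). The sign turned under 4 of 12 alternative settings, none of which called it. Amotl1 made up 88.2% ± 2.95 of the summed TPM of the pair in control and 89.9% ± 5.08 in OGTi (exact permutation p = 0.625).

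**Figure D3:**
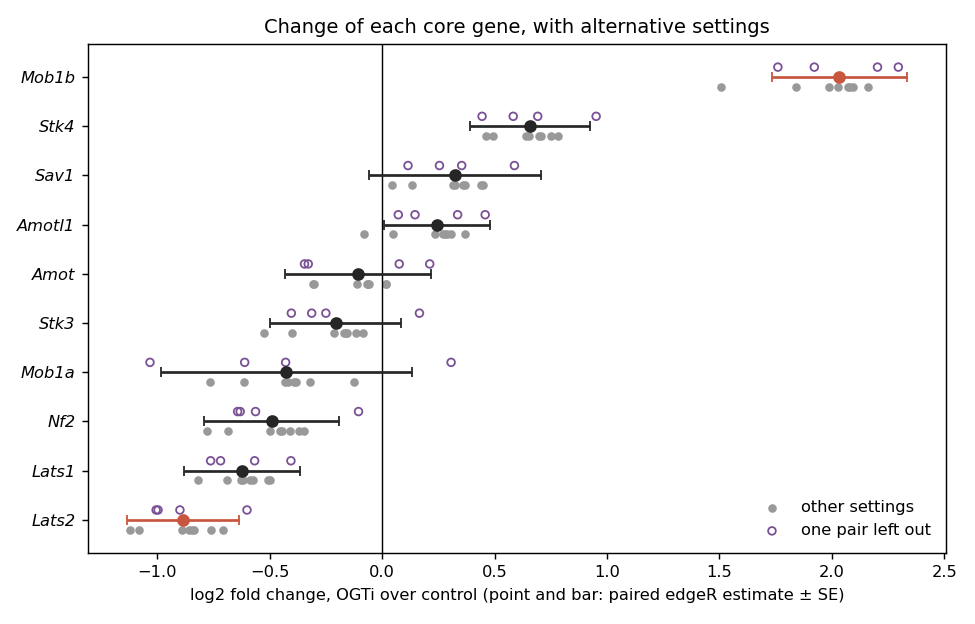
Log2 fold change of each member, OGTi over control, with bars of 1 SE (paired edgeR fit, called members in red) and the values under other settings (grey) and with 1 pair left out (open circles). Mob1b stays at 1.51 or above and Lats2 at -0.60 or below in every case, while Stk3, Mob1a, Amot and Amotl1 have values on both sides of 0.

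Of the 10 members, 4 had the same direction in all 4 pairs (Lats1, Lats2 and Nf2 lower, Mob1b higher), against 40.9% of all genes tested. The scaled counts of 2 did not overlap between groups, against 23.5% of genes. In TPM, 4 members did not overlap (Lats1, Lats2, Mob1b and Nf2), against 27% of genes. Nf2 differed by -1.70 on the log2 scale in pair 1 and by -0.21, -0.09 and -0.02 in the others.

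RSEM gives each gene a length in each library, the mean length of its transcripts weighted by their estimated abundance, which changes when transcripts of other lengths are counted. Mob1b has 1 transcript in the tables and a fixed length. Stk4, with 3 transcripts, had lengths of 3729, 3412, 3709 and 3806 bases in control replicates 1 to 4. In OGTi the lengths were 3060, 3392, 3250 and 3363 bases. The Stk4 length was shorter in OGTi in all 4 pairs and the groups did not overlap, although control replicate 2 and OGTi replicate 2 differed by under 1%. The means were 3664 ± 173 and 3266 ± 151 bases (SD, n = 4). Groups that did not overlap were seen in 7.3% of 10800 genes with several transcripts, and a shorter OGTi group in 3.33%. The other 8 members with several transcripts overlapped between groups. The Lats2 length was 5004 ± 125 bases in control and 4808 ± 260 bases in OGTi, with the lowest value, 4435 bases, in OGTi replicate 1. Which transcripts of Stk4 were counted was not analysed here.

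**Figure D4:**
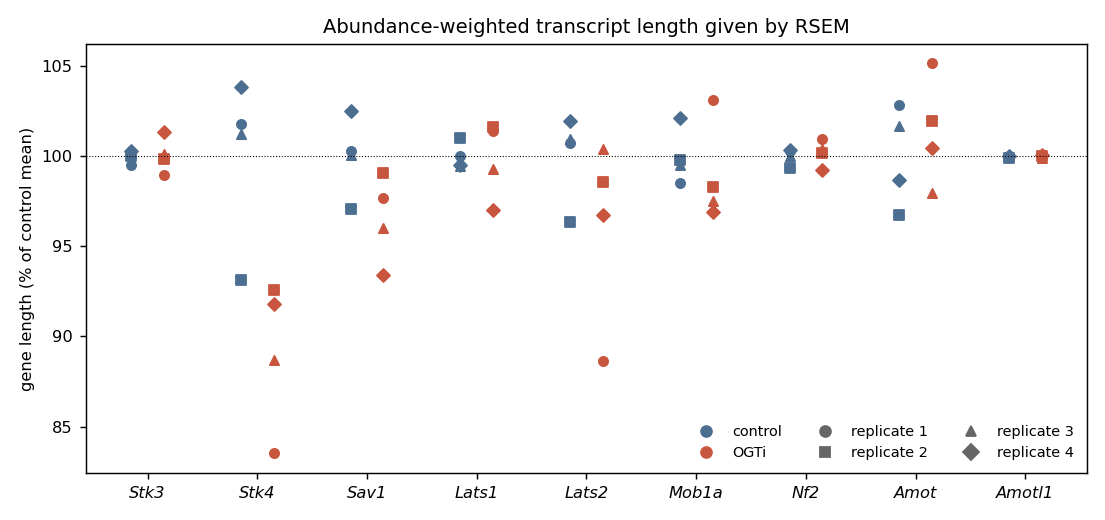
Transcript length given by RSEM, as a percentage of the gene's control mean, for the 9 members with several transcripts (points, 1 per library). Only the Stk4 groups do not overlap, with every OGTi library shorter than every control library.

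The other genes of the pathway were read from the same fit, in lists by role, written from general knowledge with earlier results of these data known. Of 84 such genes tested, 23 were called, 4 higher and 19 lower, where 18.4% of all genes were called, 8.13% higher and 10.2% lower. The lists differed in the share called. It was 59.1% for YAP/TAZ targets, which include Lats2, and 50% for output genes. It was 33.3% each for RASSF scaffolds and the NDR branch, with 6 genes tested in each. It was 19.0% for membrane and polarity regulators, 10% for upstream kinases and 0% for core inhibitors.

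The upstream kinases of the MAP4K and TAOK families phosphorylate LATS in parallel to the MST kinases. Map4k3 was the only one of 10 called, with a log2 fold change of -1.07 ± 0.25 (adjusted p of 0.0163), and the median of the list was -0.53. Without replicate 3 or 4 it was not called (adjusted p of 0.119 and 0.0656). Of 21 membrane and polarity regulators, 4 were called lower and 0 higher, with a median of -0.61. That is 19.0% of the list, near the 18.4% of all genes. They were the giant cadherin Fat4 at -1.44 ± 0.41 (adjusted p of 0.0349), the phosphatase Ptpn14, which binds YAP, at -1.41 ± 0.28 (adjusted p of 0.00742), the angiomotin Amotl2 at -0.92 ± 0.24 (adjusted p of 0.0269) and the scaffold Dlg5 at -0.79 ± 0.24 (adjusted p of 0.0453). Without the replicate block 1 of the 4 stayed called, Ptpn14. Of these 4, Fat4, Amotl2 and Dlg5 were not called without replicate 1 either (adjusted p of 0.0902, 0.0502 and 0.0949). Dlg5 was also not called with upper-quartile scaling (adjusted p of 0.0775). The count over the list was 1 without replicate 3 and 2 without replicate 4. Amotl2, the third angiomotin, thus fell in the main fit while Amot and Amotl1 were not called.

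The 14 core inhibitors are members of the STRIPAK phosphatase complex, which removes phosphate from MST, and the LATS-binding proteins Ajuba, Limd1 and Wtip. In this list 0 genes were called by the paired edgeR fit with TMM scaling, 3 had an unadjusted p under 0.05, and the median was 0.07. Other scalings and filters in edgeR called 1 or 2, the fit without replicate 1 called 1, DESeq2 called 1 and limma called 3. Among the RASSF scaffolds, which bind the MST kinases, Rassf5 was higher at 1.16 ± 0.33 (adjusted p of 0.0336) and Rassf6 lower at -1.03 ± 0.30 (adjusted p of 0.0363). Rassf6 was not called when any 1 pair was left out, and Rassf5 was called without replicate 2 (adjusted p of 0.0161) but not without replicate 1, 3 or 4. Rassf5 was also not called without the replicate block (adjusted p of 0.0807), with library totals alone (0.0516) or in limma on TPM (0.143), and Rassf6 not with upper-quartile scaling (0.0593). The NDR kinases are related to LATS and share MOB partners with it. The list called NDR branch holds them and further MOB genes, for which binding to NDR kinases is not implied. In this list, the kinase Stk38 had a log2 fold change of -1.27 ± 0.29 (adjusted p of 0.0128). The MOB gene Mob3b had one of -3.17 ± 0.54 (adjusted p of 0.00349). Both were called lower, and 4 of 6 genes were not called. On the log2(TPM + 1) scale, which understates changes of low genes, limma put Mob3b at -0.93, and likewise Fat4 at -0.30. Stk38 was not called without replicate 4 (adjusted p of 0.0526).

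At the output of the pathway, Yap1 had a log2 fold change of -0.42 ± 0.22 and did not pass the test (adjusted p of 0.214). Wwtr1, which encodes TAZ, rose by 1.41 ± 0.28 on the log2 scale (adjusted p of 0.00737). Tead4 was also higher, by 1.81 ± 0.41 (adjusted p of 0.0125), whereas Tead1 had a log2 fold change of -0.82 ± 0.23 (adjusted p of 0.0342) and Tead2 one of -2.15 ± 0.37 (adjusted p of 0.00383). Tead1 was not called when any 1 pair was left out, nor with upper-quartile scaling (adjusted p of 0.0658). Vgll1 and Vgll2 were too low to be tested, and the other 3 output genes were not called.

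Of 22 genes that YAP and TAZ are known to activate, 12 were called lower and 1 higher, with a median of -0.83. That is 59.1% of the list, against 18.4% of all genes. Because the list was chosen with earlier results of these data known, its share is not an independent measure of enrichment. The list holds Lats2, Amotl2 and Ptpn14, which are thus counted among the regulators as well. The lowest log2 fold changes were those of the ecto-nucleotidase Nt5e at -2.37 ± 0.48 (adjusted p of 0.00767), the tissue factor gene F3 at -2.34 ± 0.18 (adjusted p of 0.000186) and the membrane protein gene Myof at -1.56 ± 0.33 (adjusted p of 0.0100). Without replicate 4, Nt5e and Myof were not called (adjusted p of 0.0517 and 0.0626). Ccn1, a matricellular protein and a common readout of YAP, rose by 1.39 ± 0.21 (adjusted p of 0.00185). The count of targets called was 7 without replicate 3 and 8 without replicate 4, and over all genes tested the count also moved from 3666 to 1905 and 1956.

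**Figure D5:**
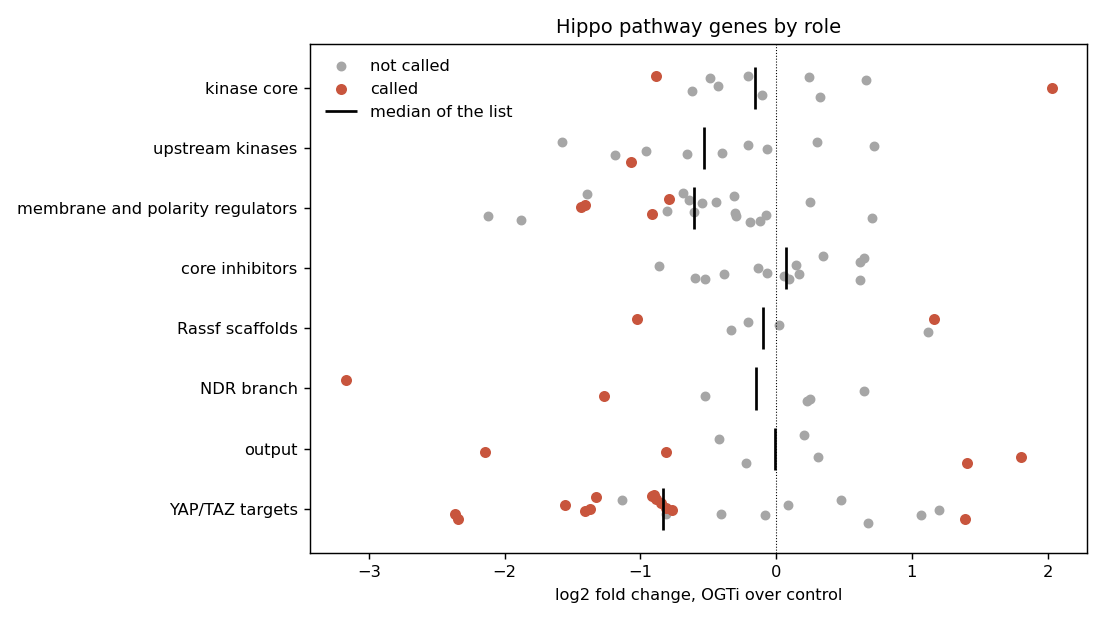
Log2 fold change, OGTi over control, of the tested genes of each Hippo pathway list (points, called genes in red, list medians as bars). The YAP/TAZ target list has a median of -0.83 with 13 of 22 called, and the kinase core has a median of -0.16 with 2 of 10 called. The lists were chosen with earlier results of these data known.

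The genes whose levels were most like those of the 2 changed members over the 8 libraries were found among 10717 genes with a mean of at least 100 scaled counts. For Mob1b they were Lgals3 (galectin-3), Gm51458 and Slc25a33, a mitochondrial carrier, with Pearson's r of 0.996, 0.993 and 0.992. For Lats2 they were the kinase Fam20b, Cip2a and Ttc26, with r of 0.980, 0.977 and 0.977. The 3 genes most like Mob1b were called higher and the 3 most like Lats2 were called lower. The 8 points share 2 groups, so a difference between groups alone gives a high r for many genes.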

How the data were processed

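RNA of 8 cultures (4 control, 4 OGTi) was analysed, with groups and replicate numbers taken from the sample titles. Per the study's methods and the labels, the authors prepared stranded, paired-end libraries from poly(A) RNA, mapped reads with Bowtie2 2.3.5.1 to mm39 (GRCm39) and ran RSEM 1.3.1, 1 table per library. The deposited expected counts are estimated reads per gene, unscaled, and the deposited TPM values are scaled by length and depth. The authors' tables also give a transcript length per gene and library. The methods name a GENCODE annotation, but the deposited transcript identifiers are RefSeq ones. The authors' table of DESeq2 fold changes and p-values was not used. From each library, the expected counts, TPM values and transcript lengths were used.

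The expected counts were rounded here and tested with edgeR 4.0.16 in R 4.3.3 (TMM scaling, glmQLFit and glmQLFTest, replicate number as a block), over 19963 genes with a total of at least 10 counts. The Benjamini-Hochberg adjustment ran over all of these genes, with calls made up to an adjusted p of 0.05. The biological coefficient of variation was 0.342. The block follows the study's methods, which pair cultures by experiment. Deviations from group means correlated across genes with r of 0.149, 0.202, 0.0835 and 0.289 in same-numbered libraries and -0.274 to 0.183 in the others. On simulated data with 200 changed genes, the fit called 35% of changes of 1 and 98% of changes of 2 on the log2 scale, and 2.21% of calls were false. The simulation held fewer changed genes than the 3666 called here, and neither an outlying library nor a length trend. These rates need not hold for the real libraries.

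Libraries held 30068876 to 37372420 expected counts, and both this depth and the spread between cultures limit the precision. Paralog shares were computed from TPM, and their pairs tested by exact sign-flip permutation. Coding sequences were read from GRCm39 with GENCODE vM39. The settings tried were no block, upper-quartile scaling, library totals alone, DESeq2 1.42.0, no low-count filter, filterByExpr, limma 3.58.1 on log2(TPM + 1), removal of each library's trend on gene length, and leaving out each pair. Genes named were all members, every called gene of a list with at most 6 called (otherwise the 3 of largest change in each direction), Yap1, Wwtr1 and, for each called member, the 3 genes of highest correlation. The members and lists were chosen with earlier results of these data known.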

Additional observations from a re-analysis of the deposited data

Results flagged for a closer look

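Of 82 groups of 4 values examined, 4 held a library far from the other 3, against 4.1 that such a rule marks by chance. Among the members, OGTi replicate 1 had 659 scaled counts of Nf2 where the other OGTi libraries had 1606 to 1773. In the same library, Mob1b made up 69.7% of MOB1 mRNA by TPM, against 19.1% to 23.8% in the others. Outside the core, Map4k3 had 929 scaled counts in control replicate 3 against 578 to 627 in the other controls, and OGTi replicate 3 had 619 of Tead1, where the remaining OGTi cultures had 836 to 880.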

How the results depend on the processing

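Of 120 member values under the 12 alternative settings, 106 kept direction and call, 7 changed sign, 4 lost the call (Lats2, each time 1 pair was left out) and 3 gained it (Stk4). Sign changes concerned members that were not called. Amot became 0.020 with upper-quartile scaling and 0.018 with the length trend removed, 0.21 without replicate 1 and 0.08 without replicate 3, Amotl1 became -0.080 in limma on TPM, and Stk3 and Mob1a became 0.17 and 0.31 without replicate 1. The difference in the Amotl1 share became -1.30 percentage points without replicate 1. Of 216 values of 18 other named genes, 183 kept direction and call, 33 lost the call and 0 reversed. The causes were not tested.

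Without the replicate block 2991 genes were called (1459 higher, 1532 lower) in place of 3666, membrane and polarity regulators called fell to 1 and RASSF scaffolds to 1 (Rassf5 lost). The block changed no member's call. Limma on TPM called 3456 genes lower, and the share of higher calls was 44.3% in the main fit, 54.2% with upper-quartile scaling, 30.1% with library totals alone and 25.7% in limma on TPM, while the median of all genes moved from 0.01 to 0.13, -0.19 and -0.10. Upstream kinases called were 2 with library totals alone, DESeq2 and limma and 3 without the low-count filter. Core inhibitors called were 1 with upper-quartile scaling, DESeq2, no filter and filterByExpr, 2 with library totals alone and 3 in limma. RASSF scaffolds called were 1 with upper-quartile scaling, library totals alone and limma.

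With 1 pair left out, calls ranged from 1905 to 3124 over all genes, 843 to 1433 higher and 1062 to 1744 lower. They ranged from 1 to 2 for core members, 0 to 2 for upstream kinases, 1 to 4 for membrane and polarity regulators, 0 to 1 for core inhibitors, 0 to 1 for RASSF scaffolds, 1 to 2 for the NDR branch and 7 to 13 for YAP/TAZ targets. Among members whose sign turned, the log2 fold change ranged from -0.40 to 0.17 for Stk3, from -1.03 to 0.31 for Mob1a and from -0.34 to 0.21 for Amot. The Amotl1 share difference ranged from -1.30 to 4.68 percentage points.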
